A study of Mus musculus with 4 samples.

Results

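Before a cell divides, it copies its genome once. Origins are marked and licensed by the ORC proteins, Cdc6 and Cdt1, which load the Mcm2 to Mcm7 ring. Cdc45, the GINS proteins and Mcm10 turn that ring into a moving helicase, and primase, the polymerases and the Pcna clamp then make the new strands. Many of these genes are E2F targets that are switched on as cells enter S phase. In spleens of tumor-bearing mice, the granulocytic precursors of myeloid-derived suppressor cells (MDSCs) can still divide, whereas mature neutrophils do not. The DNA replication genes described here are 43 genes chosen by symbol, out of 53465 genes in the count table, and all 43 were found in it under their symbols. They cover origin licensing (10 genes), helicase activation (6), polymerases and primase (6), the sliding clamp and its loader (6), Okazaki fragment processing and single-stranded DNA binding (5), nucleotide supply (5), chromatin assembly (2) and control of the G1/S transition (3).

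RNA-seq was done on MDSCs isolated from spleens of male BALB/c mice, 6 weeks old at the start, that carried tumors of 4T1, a transplantable mammary carcinoma cell line. Magnetic beads that bind Gr-1 (an antigen of granulocytes and monocytes) were used for the isolation, and the cells were cultured for 6 h in control medium (2 libraries) or in medium with 5 μg/mL EGCG (2 libraries), the main catechin of green tea. The labels place the isolation at day 21 after the injection of 4T1 cells, while the study's methods give 2 weeks. Neither says whether replicate libraries derive from separate mice, so that p values measure the spread between these libraries, which may be technical. The question asked of the DNA replication genes is whether their expression differed between cells with and without EGCG, since the study examined the growth and cell cycle of these cells.

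As a sequence feature that the choice of genes did not use, E2F words were looked up in RefSeq promoter windows (GRCm38.p6), which run from 250 bases before to 50 bases after a transcription start. The words were TTTCGCGC, TTTCCCGC and TTTGGCGC on both strands, and a pair of words on opposite strands can overlap. RefSeq windows were found for 35 of the 43 genes, and 12 of these 35 genes held at least 1 word. Counted by window, 12 of 40 windows (30%) of the DNA replication genes held a word, against 606 of 32851 windows (1.84%) of all genes. The share was 32.4% of windows in the list of further replication genes and 32% in that of other G1/S regulators, but 5% in that of further genes of nucleotide metabolism and 5.88% in the mitosis list. CCAAT, the box bound by NF-Y, was found on either strand in 23 of the 40 windows (57.5%), in 37.4% of all windows and in 88.2% of those of the mitosis list. The windows shown are those of the 4 genes with the smallest p for EGCG among the 12, printed 5′ to 3′ on the strand of the gene with the E2F words in capitals. For Mcm5 (chr8:75109259-75109508, plus strand), Orc1 (chr4:108579204-108579453, plus strand) and Mcm6 (chr1:128359706-128359955, minus strand) the 250 bases before the start are given, and for Pold1 (chr7:44548766-44548784, minus strand) only the 19 bases around its word, which begins at base 40 of the transcript:
Mcm5: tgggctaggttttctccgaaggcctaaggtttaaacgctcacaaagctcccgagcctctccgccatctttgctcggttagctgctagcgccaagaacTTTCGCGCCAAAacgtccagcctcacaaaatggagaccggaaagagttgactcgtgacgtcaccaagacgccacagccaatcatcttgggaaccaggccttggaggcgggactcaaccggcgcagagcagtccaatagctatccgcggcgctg
Orc1: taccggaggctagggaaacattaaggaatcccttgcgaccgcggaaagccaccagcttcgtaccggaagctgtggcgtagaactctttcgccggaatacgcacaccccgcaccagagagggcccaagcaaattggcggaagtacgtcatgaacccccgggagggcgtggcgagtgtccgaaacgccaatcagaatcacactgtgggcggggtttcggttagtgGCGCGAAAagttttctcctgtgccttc
Mcm6: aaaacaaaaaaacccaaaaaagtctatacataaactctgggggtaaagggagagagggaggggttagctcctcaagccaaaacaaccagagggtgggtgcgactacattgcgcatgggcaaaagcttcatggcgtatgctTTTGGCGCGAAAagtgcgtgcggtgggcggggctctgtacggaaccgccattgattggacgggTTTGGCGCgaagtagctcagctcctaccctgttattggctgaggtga
Pold1: atcttgtgGCGGGAAAagc
In Mcm5 the TTTCGCGC that begins 153 bases before the start overlaps a TTTGGCGC on the other strand, and in Mcm6 a TTTGGCGC that begins 110 bases before the start overlaps a TTTCGCGC on the other strand. Mcm6 has a further word 47 bases before the start, and the word of Orc1 begins 27 bases before its start.

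No DNA replication gene passed the test for a difference with EGCG in either direction. All 43 genes had enough counts to be tested, and 0 of them passed an adjusted p of 0.05 (quasi-likelihood test of edgeR, Benjamini-Hochberg adjustment, 14682 genes tested), where 0.15% of all tested genes passed (0.0136% higher and 0.136% lower). At an unadjusted p under 0.05 there was 1 gene, Chaf1a, which was lower with EGCG, whereas 12.2% of all tested genes reached that level (7.02% lower and 5.22% higher). DESeq2 gave an adjusted p to 22 of the 43 genes and none to the other 21, which its filter on low means left out. Of these 22 genes 0 passed an adjusted p of 0.05 by DESeq2, where 0.815% of all 7850 genes with such a value passed, and of the 43 genes 0 had an unadjusted p under 0.05, against 6.28% of all tested genes. The log2 fold change (EGCG over control) was above 0 for 22 genes and below 0 for 21 (50.6% of all tested genes were above 0), with a median of 0.0069 beside 0.0031 over all tested genes. It ran from -0.38 (Orc1) to 0.29 (Gins2), and the middle of the distribution, from the lower to the upper quartile, lay between -0.06 and 0.09, compared with -0.14 and 0.12 over all tested genes. For 38 of the 43 genes the log2 fold change was smaller than 0.2 in size (88.4%, against 66.8% of all tested genes). All tested genes include some with fewer counts than any of these 43, and no set matched for level was used. The narrower spread is therefore not a sign that these genes were unusually stable.

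A p above the threshold does not show that levels were equal, and the 95% interval of each fold change gives the size of change that these libraries leave possible. The interval of all 43 genes lay inside a 2-fold change either way, and that of 37 genes inside a 1.5-fold change. The 6 genes with wider limits were Orc1, Gins1, Gins2, Gins3, Fen1 and Chaf1a. Standard errors ran from 0.08 to 0.27 on the log2 scale, and counts of a gene in a library from 33 to 2251. The EGCG libraries lay entirely above the control libraries for 10 of the 43 genes (21.5% of all tested genes did so) and entirely below them for 5 (21.2% of all tested genes).

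**Figure D1:**
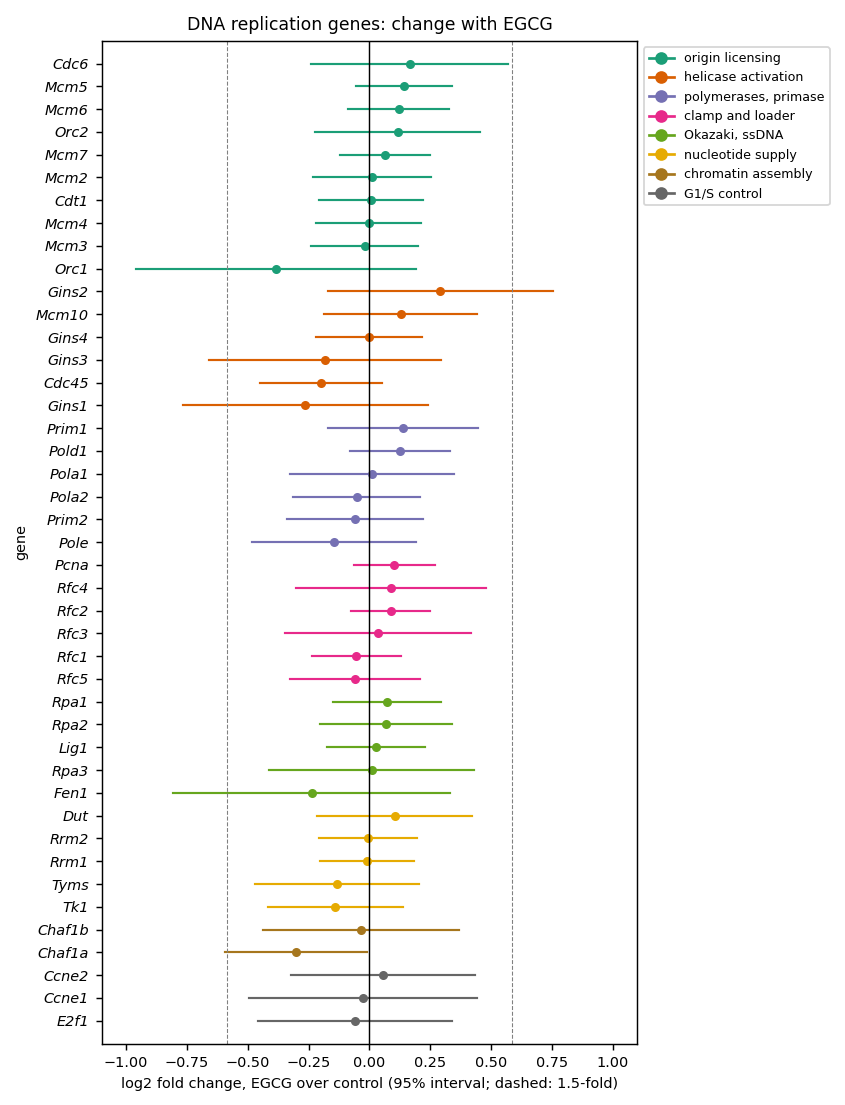
Log2 fold change of each DNA replication gene with EGCG, ordered by role. Points are the estimates of edgeR's quasi-likelihood fit (2 libraries per group), bars their 95% intervals and dashed lines a 1.5-fold change; 42 of the 43 intervals reach across 0, and that of Chaf1a ends just below it.

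In origin licensing, 7 of 10 genes were above 0 and 3 below, and none passed the test. Mcm5, a subunit of the ring of the replicative helicase, was the most abundant gene of this role, at 51.0 and 44.3 CPM (the count relative to the TMM-scaled total of the library) in the control libraries and 53.2 and 52.0 CPM in the EGCG libraries. Both EGCG libraries lay above both control libraries, but control replicate 1 was close to them, and the log2 fold change of 0.14 (standard error 0.09) had an adjusted p of 0.579 by edgeR. With 1 library omitted it ran from 0.05 to 0.25. Mcm6, another subunit of the ring, was at 28.0 and 26.9 CPM in the control libraries and 29.2 and 30.5 CPM with EGCG (log2 fold change 0.12, standard error 0.10). These groups also did not overlap, and the adjusted p was 0.665 by edgeR. Mcm2, Mcm3, Mcm4 and Mcm7 had log2 fold changes of 0.01, -0.02, -0.0025 and 0.06, with standard errors from 0.09 to 0.11. The loading factor Cdt1 stood at 34.0 and 35.3 CPM in the control libraries and at 32.3 and 37.3 CPM with EGCG, so that the control values lay between those with EGCG. Cdc6, the other loading factor, had a log2 fold change of 0.17 (standard error 0.19) and Orc2, a core subunit of the origin recognition complex, 0.12 (0.16). With 1 library omitted these ran from 0.02 to 0.29 for Cdc6 and from 0.01 to 0.23 for Orc2. Orc1, the largest subunit of that complex and the least abundant of the 43 genes, had the largest change in size. It was at 2.68 and 2.46 CPM in the control libraries and at 2.10 and 1.85 CPM in the EGCG libraries, from 33 to 49 counts per library. The groups did not overlap, and its log2 fold change of -0.38 (standard error 0.27) had an adjusted p of 0.613 by edgeR, with a 95% interval from -0.96 to 0.19.

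Among the helicase activation genes, 2 of 6 were above 0 and 4 below, and none passed the test. Gins4, the most abundant GINS subunit, was at 26.6 and 25.9 CPM in the control libraries and 27.5 and 24.97 CPM with EGCG, which enclosed the control values. Gins2 was at 4.11 and 3.97 CPM in the control libraries and 4.19 and 5.71 CPM with EGCG. Only EGCG replicate 2 stood clear of the controls, and the log2 fold change was 0.29 (standard error 0.21, adjusted p of 0.629 by edgeR) with all 4 libraries and 0.05 without EGCG replicate 2. The remaining GINS subunits went the other way, with log2 fold changes of -0.26 (standard error 0.23) for Gins1 and -0.18 (0.22) for Gins3. With 1 library omitted these ran from -0.45 to -0.05 for Gins1 and from -0.42 to 0.03 for Gins3. Cdc45, which joins GINS and the Mcm ring in the active helicase, was at 17.2 and 18.1 CPM in the control libraries and 15.99 and 14.7 CPM in the EGCG libraries. Both EGCG values were lower, the log2 fold change was -0.20 (standard error 0.12), and the adjusted p was 0.532 by edgeR, with a 95% interval from -0.45 to 0.05. Mcm10, which helps to activate the helicase, had a log2 fold change of 0.13 (standard error 0.15).

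Among the polymerases, Pold1, the catalytic subunit of the main lagging-strand polymerase, was at 27.9 and 27.8 CPM in the control libraries and at 31.1 and 29.7 CPM in the EGCG libraries. The groups did not overlap, and the difference was 0.13 on the log2 scale (standard error 0.10, adjusted p of 0.646 by edgeR). Pole, the catalytic subunit of the leading-strand polymerase, was at 9.91 and 8.84 CPM in the control libraries and 7.83 and 9.13 CPM with EGCG (log2 fold change -0.15, standard error 0.16). EGCG replicate 2 lay between the control values, and with 1 library omitted the log2 fold change ran from -0.26 to -0.04. Pole has the greatest exonic length of the 43 genes (11160 bases), and with a correction for gene length its value was -0.01. The same correction gave 0.11 for Pola1, 0.22 for Mcm10 and 0.09 for Mcm2. The primase subunits Prim1 and Prim2 had log2 fold changes of 0.14 and -0.06, and the subunits of polymerase alpha, Pola1 and Pola2, 0.01 and -0.05. Their standard errors ran from 0.12 to 0.16.

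Pcna and the abundant loader subunits had the smallest standard errors of the 43 genes. Pcna, the sliding clamp that tethers polymerases to DNA, was at 75.6 and 71.5 CPM in the control libraries and at 78.8 and 79.0 CPM in the EGCG libraries. The EGCG values agreed closely with each other and lay just above the controls (log2 fold change 0.10, standard error 0.08, adjusted p of 0.648 by edgeR), and the 95% interval ended at -0.07 and 0.27. Rfc2, a loader subunit, had the highest count of the 43 genes, at 112 and 118 CPM in the control libraries and 118 and 126 CPM with EGCG. Control replicate 2 and EGCG replicate 1 were nearly the same (117.6 and 117.7 CPM), and the log2 fold change was 0.09 (standard error 0.08), or from 0.04 to 0.14 with 1 library omitted. Rfc1, the large loader subunit, had -0.05 (0.08), and Rfc3, Rfc4 and Rfc5 had 0.04, 0.09 and -0.06 with standard errors from 0.12 to 0.18.

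Lig1, the ligase that seals Okazaki fragments, was at 32.3 and 33.9 CPM in the control libraries and 33.1 and 34.3 CPM in the EGCG libraries (log2 fold change 0.03, standard error 0.09). The groups overlapped. Fen1, the nuclease that trims the flaps of these fragments, was at only 2.52 and 2.46 CPM in the control libraries and 1.99 and 2.24 CPM with EGCG. Its groups did not overlap, but its log2 fold change of -0.24 had a standard error of 0.27. The subunits of the single-stranded DNA-binding protein, Rpa1, Rpa2 and Rpa3, had log2 fold changes of 0.07, 0.07 and 0.01.

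In nucleotide supply, 1 of 5 genes was above 0 and 4 were below, and none passed the test. Rrm1, the large subunit of ribonucleotide reductase, was at 44.1 and 48.6 CPM in the control libraries and 47.1 and 45.1 CPM in the EGCG libraries, both inside the control range (log2 fold change -0.0092, standard error 0.09). Rrm2, the small subunit whose level rises in S phase, was at 40.0 and 39.6 CPM without and 37.3 and 42.0 CPM with EGCG (log2 fold change -0.0051, 95% interval from -0.21 to 0.20). For Tk1, the cytosolic thymidine kinase, the values were 23.8 and 21.2 CPM in the control libraries and 23.1 and 17.7 CPM with EGCG. Only EGCG replicate 2 lay below the controls, and the log2 fold change of -0.14 (standard error 0.13) became 0.04 without that library. Tyms, which makes thymidylate, had -0.13 (0.16), and Dut, which removes dUTP, 0.10 (0.15).

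Chaf1a, the large subunit of the histone chaperone that loads nucleosomes behind the fork, was the single gene with an unadjusted p under 0.05. It was at 12.71 and 12.70 CPM in the control libraries and at 10.9 and 9.74 CPM in the EGCG libraries, which thus lay below both controls. Its change was -0.30 on the log2 scale (standard error 0.14, 95% interval from -0.59 to -0.01), with an unadjusted p of 0.0426 and an adjusted p of 0.397 by edgeR. With a correction for gene length the log2 fold change was -0.20. Its partner Chaf1b had -0.04 (standard error 0.19). Of the G1/S control genes, E2f1, a transcription activator of this gene group, was at 9.53 and 7.72 CPM in the control libraries and 6.89 and 9.69 CPM with EGCG. The EGCG libraries were the lowest and the highest of the 4, and the log2 fold change was -0.06 (standard error 0.19). The cyclins E, Ccne1 and Ccne2, which start S phase with Cdk2, had -0.03 (0.22) and 0.05 (0.18).

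Levels can be compared between genes only per length, and CPM were therefore divided by exonic length in kb. On this scale Pcna was highest, at 31.8 CPM per kb, followed by Gins4 (19.5), Rfc2 (18.8), Rrm2 (14.3), Mcm5 (12.6) and Cdt1 (11.1). The lowest were Orc1 (0.653), Pole (0.800), Pola1 (0.939) and Fen1 (0.950). These lengths count every annotated exon, so that genes with many or long alternative transcripts come out low. The value of Fen1 is further uncertain, since most of its exonic bases lie within other genes. Rfc2 has 15.1% of its exonic bases inside Lat2, and the part of Lat2 in its value was not tested. Neighbors in the order could overlap between libraries, such as Gins4 and Rfc2 or Mcm7 and Rfc1.

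**Figure D2:**
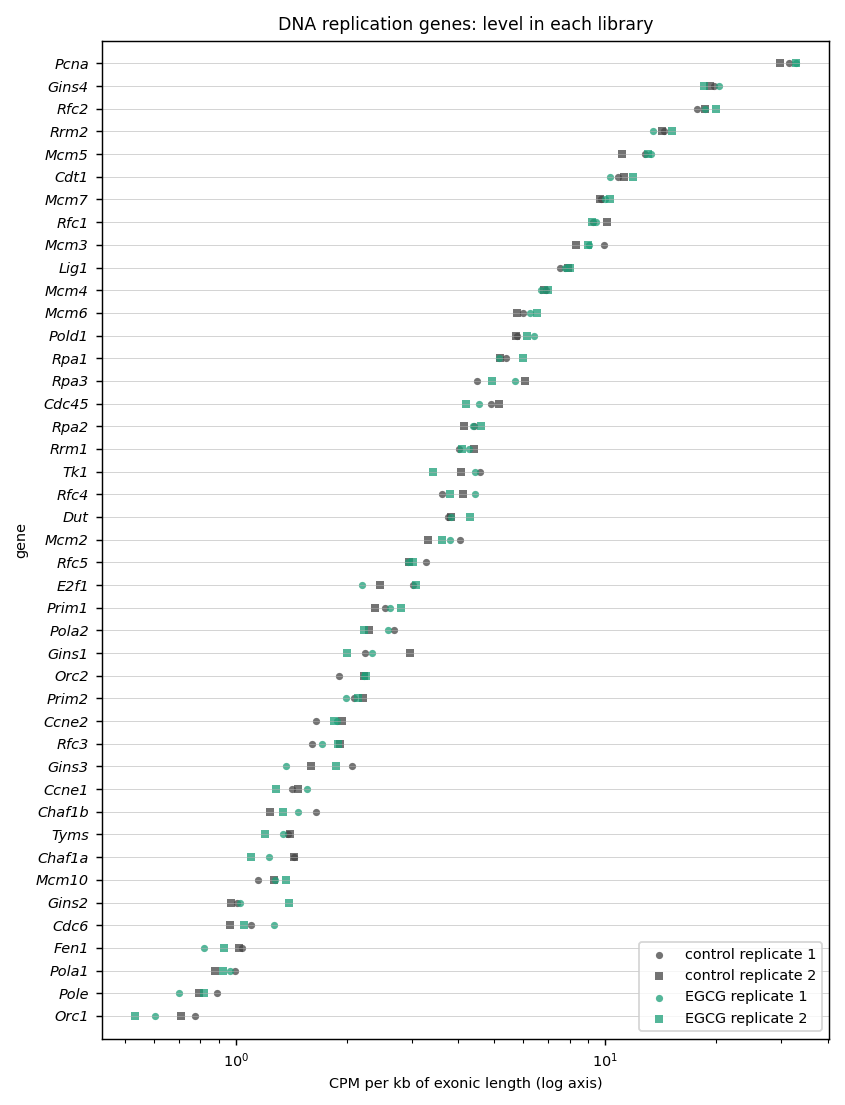
Level of each DNA replication gene in each library, in CPM per kb of exonic length on a log axis, ordered by the mean. Gray marks are control and green marks EGCG libraries; from Orc1 at 0.653 to Pcna at 31.8 CPM per kb, marks of both colors lie close together within a gene.

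Reads were counted without regard to strand, and those in bases that belong to more than 1 gene are uncertain. Of the 43 genes, 10 had at least 10% of their exonic bases inside exons of other genes in GENCODE M21 (GRCm38), and 28 had none. The overlap was largest for Fen1 (84.2%, with Tmem258 and Gm10143), Gins2 (67.3%, with Gse1), Chaf1a (52.5%, with Ubxn6) and Orc2 (29.8%, with Nif3l1). Ubxn6, the neighbor of Chaf1a, was at 110 and 111 CPM in the control libraries and 124 and 122 CPM with EGCG (log2 fold change 0.16, standard error 0.07, adjusted p of 0.402 by edgeR). Thus the CPM of the neighbor was about 10 times that of Chaf1a and went in the other direction, and its part in the value of Chaf1a was not tested. Gse1, the neighbor of Gins2, was at 68.4 and 59.9 CPM in the control libraries and 50.4 and 54.8 CPM with EGCG (log2 fold change -0.29), also opposite in direction to its partner. Nif3l1, the neighbor of Orc2, had a log2 fold change of 0.10 in the same direction as Orc2, and Tmem258, the neighbor of Fen1, had 0.03. Parts of the sequence of Mcm7 (33.4% of its 31-base words) and Pcna (23.3%) also occur in transcripts of other genes. The gene that shared the most words was Gm5487 for Mcm7 and Pcna-ps2 for Pcna.

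Summed over the 43 genes, the level was 936 and 921 CPM in the control libraries and 940 and 952 CPM in the EGCG libraries. As a share of all counts of a library, without TMM scaling, the genes held 0.0962% and 0.0916% in the control libraries. The EGCG libraries, at 0.0926% and 0.0940%, lay between these shares. The mean CPM sum with EGCG was 1.02 times that of the controls. The SD was 10.5 CPM (n = 2) in the control and 9.11 CPM (n = 2) in the EGCG libraries. By role, the ratio of the means was 1.04 for origin licensing, 0.973 for helicase activation, 1.02 for polymerases and primase, 1.04 for the clamp and its loader, 1.03 for Okazaki processing and DNA binding, 0.979 for nucleotide supply, 0.868 for chromatin assembly and 0.991 for G1/S control. In bulk samples, fewer dividing cells and less RNA per dividing cell cannot be told apart. No library was highest throughout: of the 43 genes, 12 were highest in control replicate 1, 9 in control replicate 2, 6 in EGCG replicate 1 and 16 in EGCG replicate 2.

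**Figure D3:**
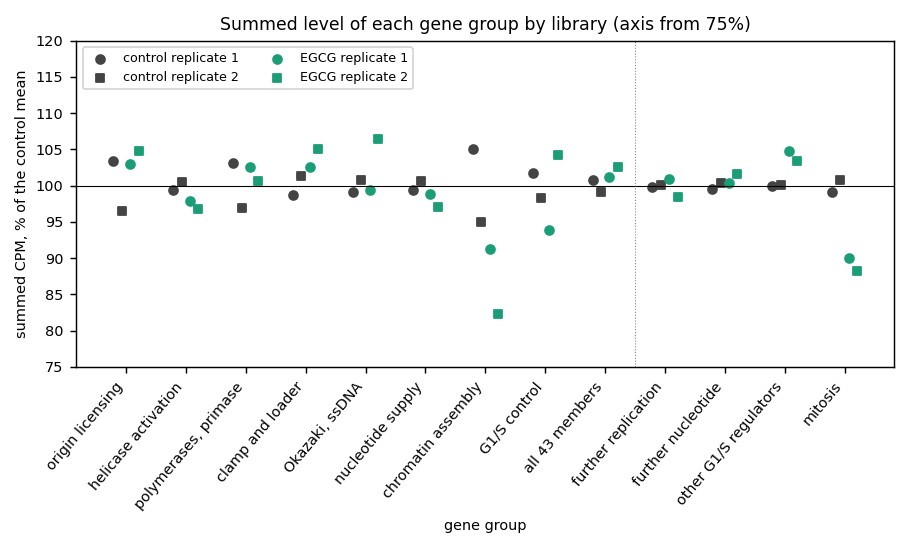
Summed CPM of each gene group in each library as a percentage of the mean of the control libraries; the vertical axis starts at 75%. Left of the dotted line are the roles of the DNA replication genes and their sum, which keeps the libraries between 921 and 952 CPM, and right of it other lists of the cell cycle, of which mitosis has both EGCG libraries below both controls and the G1/S regulators both above (1555 and 1534 CPM against 1481 and 1484 CPM).

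Other lists of the cell cycle, chosen by symbol, were read beside these genes. Over all tested genes, 12.2% had an unadjusted p under 0.05 by edgeR (7.02% lower and 5.22% higher). Of 33 further replication genes, 0 passed the adjusted p by edgeR and 1 had an unadjusted p under 0.05 (median log2 fold change 0.03, 17 higher and 16 lower). That gene was Dbf4, the activator of the kinase that fires origins, at 23.1 and 21.0 CPM in the control libraries and 17.3 and 17.9 CPM with EGCG. Its log2 fold change was -0.33 (standard error 0.11, adjusted p of 0.259 by edgeR). Mcmbp, an Mcm-binding protein and the gene of that list with the highest CPM, had 0.08 (0.08), and Orc5, an origin recognition subunit, 0.32 (0.18). With 1 library omitted these ran from 0.03 to 0.14 for Mcmbp and from 0.17 to 0.44 for Orc5.

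Of 18 further genes of nucleotide metabolism, 0 passed the adjusted p by edgeR and 2 had an unadjusted p under 0.05 (median 0.01, 9 higher and 9 lower). Samhd1, which breaks down deoxynucleotides, was the most abundant, also per length, at 1001 and 1031 CPM in the control libraries and 998 and 1026 CPM with EGCG, and its groups overlapped. Dtymk, the thymidylate kinase, was at 18.1 and 16.8 CPM in the control libraries and at 20.9 and 21.9 CPM with EGCG (log2 fold change 0.29, standard error 0.11, adjusted p of 0.311 by edgeR). Cad, which starts pyrimidine synthesis and was named after its values were seen, was at 21.5 and 19.5 CPM in the control libraries and 17.8 and 16.5 CPM with EGCG (-0.26, standard error 0.11, adjusted p of 0.382 by edgeR). Dctd, a deaminase of dCMP, had the lowest value (-0.37, standard error 0.49) at under 1 CPM.

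Among 22 other G1/S regulators, 0 passed the adjusted p by edgeR and 3 had an unadjusted p under 0.05 (median 0.0071, 12 higher and 10 lower). Ccnd3, a D-type cyclin and the gene with the highest CPM of this list, had a log2 fold change of 0.10 (standard error 0.07), and E2f3, an activating E2F, 0.20 (0.12). With a correction for gene length Ccnd3 was at 0.20, and with 1 library omitted E2f3 ran from 0.12 to 0.29. E2f7, an E2F that represses these targets, was at 6.57 and 5.71 CPM in the control libraries and 5.13 and 3.75 CPM with EGCG (log2 fold change -0.47, standard error 0.21, adjusted p of 0.386 by edgeR), and with 1 library omitted this ran from -0.71 to -0.26. The others under 0.05, named after their values were seen, were the cell cycle inhibitor Cdkn1b (0.17) and the D-type cyclin Ccnd2 (-0.23).

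In a list of 20 mitosis genes, Mki67 fell with EGCG, the only gene of these lists past the adjusted p. Mki67, which encodes the proliferation marker Ki-67, was at 293 and 279 CPM in the control libraries and 209 and 201 CPM in those with EGCG, without overlap. The change was -0.48 on the log2 scale (standard error 0.07, adjusted p of 0.0245 by edgeR). Top2a, Cenpe and Cenpf, named after their values were seen, had an unadjusted p under 0.05 in the same direction (log2 fold changes of -0.21, -0.35 and -0.26). With a correction for gene length these were -0.11, -0.25 and -0.09, and without control replicate 2 that of Top2a was -0.12. Together with Mki67 they are the 4 genes of the list with the greatest exonic length, and over all tested genes the log2 fold change fell with that length (Spearman correlation of -0.286 across 14666 genes, which share the same libraries). Across the 43 DNA replication genes that correlation was 0.0050. With the length correction the log2 fold change of Mki67 was -0.36 and its adjusted p 0.0920 by edgeR. Over the 11 alternatives, DESeq2 gave its lowest adjusted p (4.30e-05) and edgeR with no filter on low counts its highest (0.525). The log2 fold change of Mki67 with no filter was -0.48, as in the main fit. The sum of the mitosis list was 977 and 994 CPM in the control libraries and 887 and 870 CPM with EGCG, and without Mki67 it was 684 and 715 CPM against 678 and 669 CPM. Whether Mki67 and the DNA replication genes differed in their response was not tested.

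**Figure D4:**
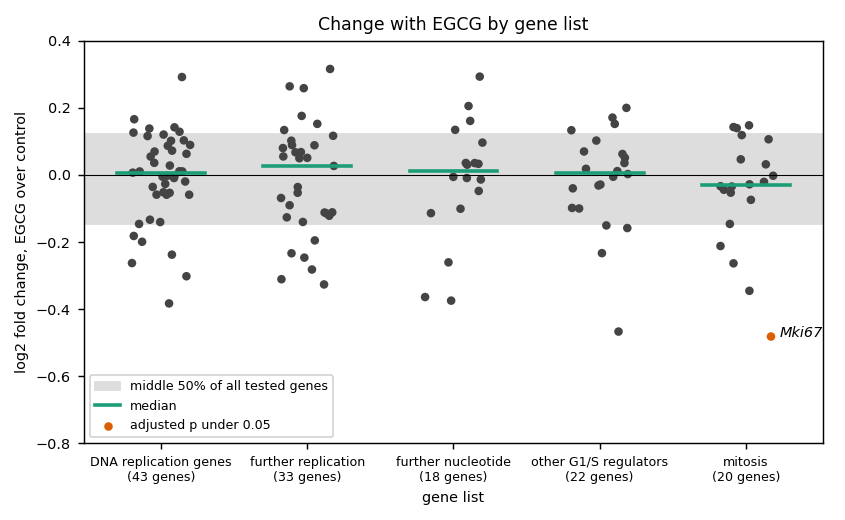
Log2 fold change with EGCG of every tested gene of the DNA replication genes and of 4 other cell cycle lists. Green bars are medians (0.0069 for the DNA replication genes) and the gray band holds the middle 50% of all tested genes; the single orange point past an adjusted p of 0.05 is Mki67 of the mitosis list.

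Over all genes, 20 were lower and 2 were higher with EGCG at an adjusted p under 0.05 by edgeR, with 17767318 to 18390385 counts per library. Markers of neutrophils, which include S100a8 and Ly6g, were abundant in every library (summed 53063 and 63923 CPM in the control and 72563 and 62765 CPM in the EGCG libraries). The largest part of that sum was S100a9, at 22455 and 28293 CPM in the control and 31668 and 27007 CPM in the EGCG libraries. S100a8 followed, at 14461 and 18163 CPM in the control and 22838 and 19476.5 CPM in the EGCG libraries. The granulocyte precursor markers Mpo, Elane, Prtn3, Ctsg and Ms4a3 summed to 679 and 672 CPM in the control libraries and to 696 and 653 CPM with EGCG, and 0 of these 5 genes passed an adjusted or an unadjusted p under 0.05 by edgeR. Markers of monocytes summed to 1496 and 1275 CPM in the control and 1140 and 1184 CPM in the EGCG libraries, and 2 of 6 (Fn1 and F13a1, named after their values were seen) had an unadjusted p under 0.05, both lower with EGCG. Without Fn1, which was at 490 and 304 CPM in the control libraries and 218 and 263 CPM with EGCG, the sum was 1006 and 971 CPM against 923 and 921 CPM. Markers of erythroid cells, whose precursors also divide in the spleen, summed to 169 and 214 CPM in the control and to 196 and 221 CPM in the EGCG libraries. Most of that sum was globin RNA. Hbb-bs was at 80.8 and 104 CPM in the control and 106 and 109 CPM in the EGCG libraries. Hba-a1 was at 53.3 and 67.8 CPM against 57.2 and 73.7 CPM. Gata1, Klf1 and Epor had means of only 3.90, 0.40 and 0.29 CPM, and the share of dividing precursors was not tested. At an unadjusted p under 0.05, 1 of 10 tested erythroid markers was lower and 1 higher, 1 of 10 neutrophil markers higher and 1 of 5 tested megakaryocyte markers lower. Of 7 macrophage markers, 3 were lower and 1 was higher at an unadjusted p under 0.05, and of 7 B cell markers 2 were higher. Over all tested genes, 7.02% were lower and 5.22% higher at that level by edgeR. The macrophage sum was carried by Slc40a1 (562 and 625 CPM in the control and 668 and 696 CPM in the EGCG libraries), and without it the sum was 360 and 365 against 288 and 302 CPM. Of these lists, 0 genes passed the adjusted p by edgeR. For markers of macrophages, B cells, T and NK cells and megakaryocytes the ranges were 922 to 998, 540 to 652, 105 to 121 and 34.6 to 44.0 CPM over the 4 libraries. The T and NK sum was carried by Cd3d, with a mean of 84.8 CPM. Its partners Cd3e and Cd3g had means of 2.65 and 3.47 CPM. Epithelial markers of tumor cells summed to between 22.7 and 26.7 CPM, with Krt8 at 0 in control replicate 2 and EGCG replicate 2 and Krt19 at 0 in all 4 libraries. Within that sum Epcam was at 3.56 and 3.30 CPM in the control libraries and 5.07 and 5.54 CPM with EGCG, and Cdh1, the main part of it, at 22.0 and 20.5 CPM against 16.2 and 19.3 CPM. Both had an unadjusted p under 0.05, in opposite directions, and neither passed the adjusted p by edgeR. The part of these cell types in the values of the DNA replication genes was not tested.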

How the data were processed

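RNA-seq counts of 2 control and 2 EGCG libraries were used. Per the labels and the study's methods, the authors aligned reads with STAR 2.6.0c to GRCm38, counted them with featureCounts 1.6.2 on Ensembl genes without strand, and deposited whole-number counts per gene, not normalized. There were 17767318 to 18390385 counts per library.

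Genes were filtered with filterByExpr (minimum count of 10), scaled by TMM and compared by the legacy quasi-likelihood test of edgeR 4.0.16 (R 4.3.3). The study's methods name edgeR's quasi-likelihood test, and the filter, the scaling and the form of the test were chosen here. The Benjamini-Hochberg adjustment covered 14682 genes (threshold 0.05). The standard error is the log2 fold change divided by the square root of F, and 95% intervals use the degrees of freedom of that test. The test was also run on simulated data, but the outcome is not reported here. Gene lengths and overlaps came from GENCODE M21 (53360 of 53465 identifiers matched), with shared sequence measured in 31-base words.

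Members and lists were chosen with earlier results of these data known. Genes shown with values in every library are those with the 8 smallest p values and, in each of 8 roles, the gene with the highest mean CPM and the gene with the largest change; Cdt1 and Rrm2 were added after their values were seen. Of each further list, genes past the threshold are named, otherwise the most abundant gene and the largest change in each direction; of marker lists, sums are given. Symbols that occur on more than 1 identifier were taken as the more abundant one. Alternatives were other filters, scalings and fits, DESeq2 1.42.0, a replicate block, a length correction (loess with a span of 0.4 as an offset) and leaving out each library, where a lone library is assumed to vary like the other group.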

Additional observations from a re-analysis of the deposited data

How the results depend on the processing

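None of the 43 DNA replication genes passed the adjusted p under any of the 11 alternatives (DESeq2 gave one to 22 of them) or with any of the 4 libraries left out: the smallest adjusted p was 0.312 (library size only), and 0.384 with a library left out. With only 0.15% of all tested genes called, a count that stays at 0 among 43 genes is little sign of stability. The count over all genes moved from 22 to 0 with no filter on low counts (1795 at an unadjusted p under 0.05), 151 with library size only, 11 with upper quartile scaling, 64 with DESeq2, 63 with edgeR's robust fit, 5 with the length correction and 4 with the replicate block and the length correction together. Omitting EGCG replicate 1 gave 93 calls, control replicate 1 118, EGCG replicate 2 196 and control replicate 2 540. The replicate block alone gave 30 calls over all genes, 0 among the DNA replication genes and a median of 0.0044 for them. Deviations of same-numbered libraries had a correlation of 0.03, and no source used here says that the numbers pair libraries. The median log2 fold change of the 43 genes ran from -0.03 to 0.05 over the alternatives, and under each of them it lay within 0.06, the SD between replicates, of the reported value.

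Of the 43 genes, 21 kept their direction throughout. The direction turned mainly for genes near 0, and the cause was not tested. With no filter on low counts, the log2 fold change was 0.00072 for Mcm4 and 0.00075 for Gins4. With library size only, the log2 fold change was -0.028 for Cdt1, -0.026 for Mcm2, -0.025 for Pola1, -0.0067 for Lig1 and -0.023 for Rpa3. With upper quartile scaling, the log2 fold change was 0.0047 for Mcm4, 0.0051 for Gins4, 0.0019 for Rrm2 and 0.0017 for Samhd1. With the length correction, the log2 fold change was 0.0085 for Mcm4, 0.046 for Pola2, 0.0028 for Rfc1, -0.026 for Rpa3, 0.12 for Rrm1 and 0.10 for Samhd1. With the replicate block with length correction, the log2 fold change was 0.0083 for Mcm4, 0.045 for Pola2, 0.0044 for Rfc1, -0.020 for Rpa3, 0.12 for Rrm1, 0.0055 for Chaf1b and 0.10 for Samhd1. When each library was omitted in turn, the range was -0.10 to 0.11 for Cdt1, -0.13 to 0.11 for Mcm3, -0.030 to 0.024 for Mcm4, -0.42 to 0.025 for Gins3, -0.073 to 0.065 for Gins4, -0.17 to 0.072 for Pola2, -0.078 to 0.17 for Rfc3, -0.025 to 0.19 for Rfc4, -0.13 to 0.023 for Rfc5, -0.0028 to 0.065 for Lig1, -0.19 to 0.24 for Rpa3 and -0.093 to 0.078 for Rrm2. It was -0.23 to 0.20 for Chaf1b, -0.055 to 0.18 for Ccne2, -0.32 to 0.17 for E2f1, -0.12 to 0.17 for Mcm2, -0.075 to 0.11 for Pola1, -0.11 to 0.012 for Rfc1, -0.074 to 0.064 for Rrm1, -0.17 to 0.10 for Ccne1, -0.026 to 0.018 for Samhd1, -0.041 to 0.18 for Rpa1, -0.34 to 0.036 for Tk1 and -1.07 to 0.088 for Dctd. Among genes that held their direction, the corresponding range was 0.040 to 0.085 for Mcm7, 0.062 to 0.20 for Mcm10, 0.089 to 0.19 for Prim1, -0.12 to -0.0029 for Prim2, 0.064 to 0.15 for Pcna, 0.029 to 0.12 for Rpa2, -0.22 to -0.053 for Tyms, 0.016 to 0.19 for Dut and -0.33 to -0.15 for Fen1. Dctd has no value under the stricter filter. Orc1 and Fen1, at 33 to 49 counts per library, had the largest standard errors of the 43 genes (0.27), and depth was not varied.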
